A study of Mus musculus with 24 samples.

Results

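Pax3, Foxd3, Msx1, Msx2, Ets1, Id2, Id3 and Dlx5 are transcription regulator genes of the early neural crest, the embryonic cell population from which melanocytes arise. These 8 genes, of 21896 protein-coding gene symbols in the RefSeq table of GRCm38.p6 (the assembly of mm10), are described here by the CUT&RUN peaks at them. A gene-end peak is a deposited peak that overlaps the 1 kb around either end of the gene, and the locus is the gene plus 20 kb on each side. The rule names the genes and uses no peak value.

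The series profiled chromatin proteins and the promoter mark H3K4me3 in mouse melanoma cells grown in DMEM/F12 with FBS. In CUT&RUN an antibody brings a nuclease to its target, and the released DNA is sequenced. The Kmt2d WT line 971 gave 10 peak lists and the Kmt2d Mutant line 493 gave 12, with 197727 peaks in all. Both lines gave lists for 9 targets, namely H3K4me3, Menin, TFAP2A, ARID1A, SMARCC1, UTX, ARID2, PBRM1 and BRD9. The KMT2D list came from the WT line, and those of TFAP2B and SOX10 (a pair of antibodies, named T and U as in the titles) from the mutant line. Each genotype was 1 line and each target 1 library per line, so line and genotype cannot be told apart, no replicate check exists and no test was run. The kind of Kmt2d mutation, the tumour model and the origin of each line are not given in the sources used here.

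Neural crest genes act in layers. Pax3, Msx1, Msx2 and Dlx5 mark the neural plate border, where TFAP2A also acts. Foxd3 and Ets1 are switched on as neural crest cells form, and SOX10 follows and carries the program into the melanocyte lineage. Id2 and Id3 encode proteins that bind basic helix-loop-helix factors and keep them off DNA. KMT2D methylates histone H3 lysine 4, mainly at enhancers, together with the demethylase UTX. Menin belongs to related methyltransferase complexes that act at promoters, and ARID1A and SMARCC1 are subunits of the SWI/SNF remodelling complexes.

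The depth used by the caller, reconstructed from the lists, was 0.861 M to 1.21 M fragments (M for mega) for WT and 0.404 M to 2.21 M for mutant lists. The mutant list was the deeper one for 8 of the 9 paired targets, and the mutant SMARCC1 list had 0.392 times the WT depth. H3K4me3 lay at gene ends of Mitf and Pmel in both lines and of Sox10 in the mutant line, while Mlana, Tyr, Tyrp1 and Dct had none, so 2 and 3 of 7 melanocyte and melanoma markers were marked. Of the other cell types, 3 of 7 fibroblast, 1 of 4 keratinocyte, 0 of 4 blood cell and 1 of 3 endothelial markers carried H3K4me3 in each line. Such a peak was at 49.3% of all genes in WT cells and at 53.8% in mutant cells. TFAP2A lay at 3 (WT) and 1 (mutant) fibroblast markers, at 1 and 0 keratinocyte, 1 and 0 blood cell and 0 and 0 endothelial markers, and at 1 and 2 melanocyte markers. For TFAP2A the shares of all genes were 24.6% and 34.0%. These small marker counts do not identify a cell type. Where other cells or depth could move with a result below, their part was not tested.

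The promoter sequences of Id3, Id2, Msx1 and Msx2 are shown because a TFAP2A summit of at least 1 line falls inside each. Each is the 250 bases before the RefSeq start in GRCm38.p6, written 5′ to 3′ on the gene's own strand. Capitals mark matches, on either strand, to the palindromes GCCNNNGGC and GCCNNNNGGC, both forms bound by TFAP2 proteins, and to the CCAAT box. The windows are chr4:136143572-136143821 (plus strand) for Id3, chr12:25096093-25096342 (minus) for Id2, chr5:37824586-37824835 (minus) for Msx1 and chr13:53472781-53473030 (minus) for Msx2.
Id3: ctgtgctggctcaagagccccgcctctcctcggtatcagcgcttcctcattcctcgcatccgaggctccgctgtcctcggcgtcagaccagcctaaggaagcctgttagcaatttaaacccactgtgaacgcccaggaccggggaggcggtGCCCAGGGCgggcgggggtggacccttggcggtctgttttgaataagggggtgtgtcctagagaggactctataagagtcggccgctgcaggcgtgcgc
Id2: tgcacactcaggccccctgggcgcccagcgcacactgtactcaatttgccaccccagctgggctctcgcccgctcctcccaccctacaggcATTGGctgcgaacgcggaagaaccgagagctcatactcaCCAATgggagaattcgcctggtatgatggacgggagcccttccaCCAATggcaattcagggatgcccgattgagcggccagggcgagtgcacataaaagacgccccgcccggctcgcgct
Msx1: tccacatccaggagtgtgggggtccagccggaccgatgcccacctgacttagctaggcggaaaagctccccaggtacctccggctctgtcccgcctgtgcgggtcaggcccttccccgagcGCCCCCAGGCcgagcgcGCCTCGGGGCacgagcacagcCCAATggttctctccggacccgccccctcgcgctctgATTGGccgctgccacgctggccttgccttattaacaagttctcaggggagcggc
Msx2: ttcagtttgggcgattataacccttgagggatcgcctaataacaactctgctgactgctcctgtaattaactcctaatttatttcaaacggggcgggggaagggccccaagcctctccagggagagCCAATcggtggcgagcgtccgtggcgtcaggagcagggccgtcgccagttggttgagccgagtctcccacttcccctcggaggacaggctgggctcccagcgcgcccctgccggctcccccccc
The Id3 window held 1 GCCNNNGGC match, GCCCAGGGC, at 99 bases before the start. The Msx1 window held 2 GCCNNNNGGC matches, at 129 and 112 bases before the start, and 2 CCAAT boxes. Id2 held 3 CCAAT boxes and Msx2 held 1, with neither palindrome in either window. Of 32526 RefSeq promoter windows of this length, 13.8% held GCCNNNGGC, 12.4% GCCNNNNGGC and 33.8% CCAAT. The SOX core ACAAAG, present in 16.5% of all windows, was in none of these 4 windows. A match is a description of letters and says nothing about binding. The GC content was 62.8% in Id3 and in Id2, 68.0% in Msx1 and 61.6% in Msx2, against a median of 52.4% over all windows. Foxd3 was also in the promoter table, at 65.6% GC, and its window held none of the 4 motifs. Pax3, Ets1 and Dlx5 were not matched in that table.

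At gene ends, with peaks as called, the 8 genes differed between the lines in 1 TFAP2A call and 1 ARID1A call. H3K4me3 marked Pax3, Foxd3, Msx1, Msx2, Id2 and Id3 in both lines, 6 of 8 genes, while 49.3% of all genes had such a peak in WT cells and 53.8% in mutant cells. Menin marked Pax3, Foxd3, Id2 and Id3 in both lines, 4 of 8 genes, against 31.5% and 37.9% of all genes. TFAP2A marked 6 of 8 genes in the WT line (background 24.6%) and 5 of 8 in the mutant line (background 34.0%). The gene that differed was Msx1, with TFAP2A in the WT line only, as at 1.2% of all genes. Of the markers of other cell types, Pdgfrb, Thy1, Krt10 and Cd68 also had TFAP2A in the WT line only, and the part of other cells in this call was not tested.

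These calls moved with the limit on peaks. When peaks needed a −log10 q of 5 or more, TFAP2A marked Msx1, Id2 and Id3 (3 genes) in WT cells and 5 genes in mutant cells. Of all genes, 21.3% and 28.3% were then marked. Pax3, Foxd3 and Msx2 were then called in the mutant line only, 3 of 8 genes beside 8.44% of all genes, and Msx1 in the WT line only, beside 1.44%. H3K4me3 was then in the mutant line only at Foxd3 (5.67% of all genes), as was ARID1A at Id3 (5.59%), with no WT member left for ARID1A. With equal numbers of top peaks TFAP2A turned the other way, to 6 WT and 3 mutant genes, beside 24.6% and 25.4% of all genes. Pax3, Foxd3 and Msx1 were then in the WT line only, as 3.86% of all genes were. At equal depth the calls of H3K4me3, Menin, TFAP2A, ARID1A, UTX and SMARCC1 were the same as those given for peaks as called.

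The remaining targets were rarer at these gene ends. ARID1A marked Pax3 and Id3 in the WT line (15.7% of all genes) and Id3 in the mutant line (20.9%). Pax3 thus had it in WT cells only, like 2.76% of all genes. UTX marked Id3 alone, in both lines, against 11.1% and 8.86% of all genes. KMT2D also marked Id3 alone, against 10.1% of all genes. SMARCC1 marked none of the 8 in either line, where 2.72% and 0.598% of all genes had it. ARID2, PBRM1 and BRD9 marked none either, with backgrounds of 0.986%, 1.9% and 0.21% (WT) and 0.932%, 2.03% and 0.0183% (mutant). TFAP2B marked Foxd3 and Id3 in the mutant line (21.9% of all genes), and neither SOX10 antibody gave a gene-end peak (0.932% for T and 3.83% for U). As called, none of the 8 genes had a gene-end peak of a paired target in the mutant line only. Of all genes, 5.09% did for H3K4me3, 8.28% for Menin, 10.6% for TFAP2A, 7.94% for ARID1A and 2.14% for UTX. For SMARCC1, ARID2, PBRM1 and BRD9 the shares were 0.338%, 0.352%, 0.667% and 0.0%. None had H3K4me3 in the WT line only, as 0.543% of all genes did. With 8 genes these counts describe the list and do not set it apart from other genes.

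**Figure D1:**
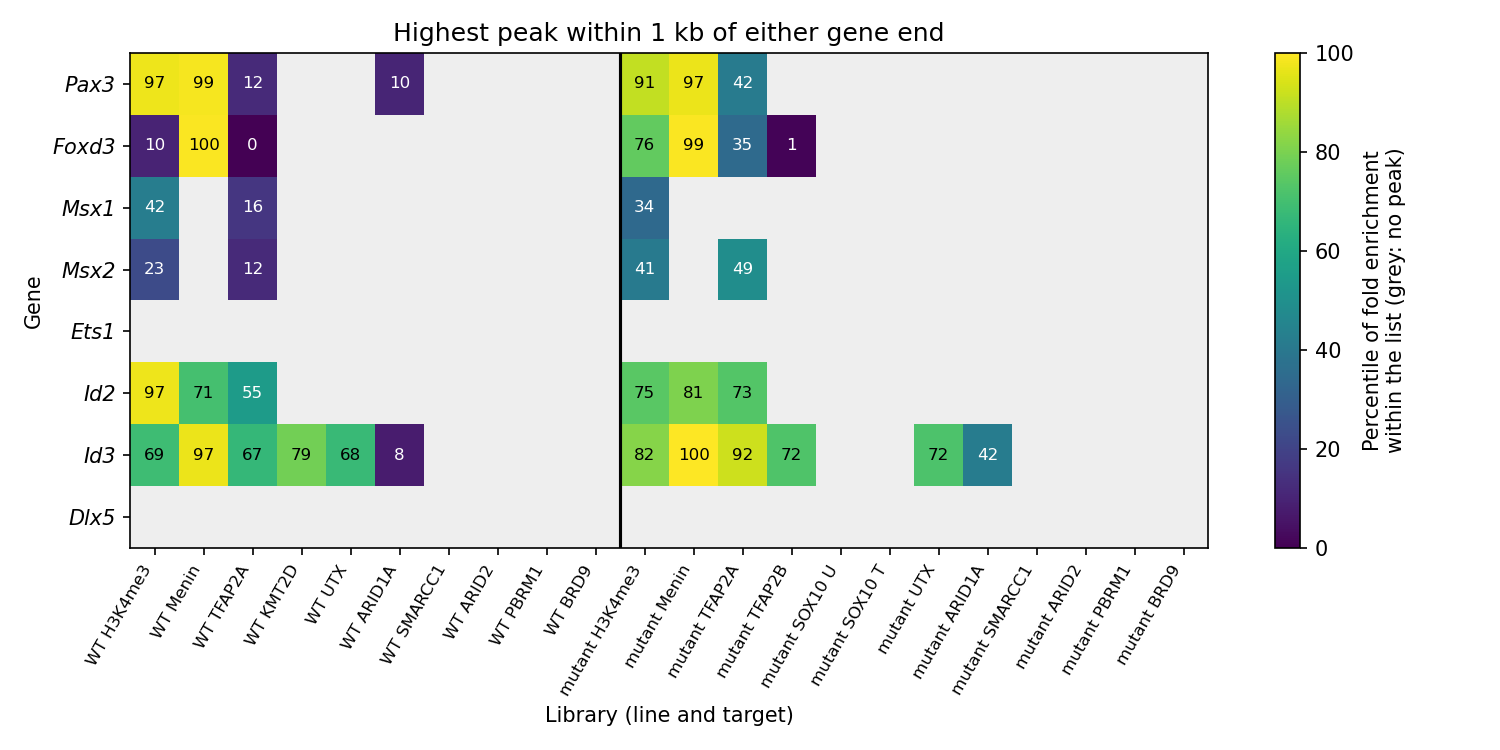
Heat map of the highest gene-end peak of each gene (rows) in each of the 22 libraries (columns, WT left of the line and mutant right). Colour and number give the percentile of the authors' fold enrichment among all peaks of the same list, and grey means no peak. Id3 has a peak in 6 WT and 6 mutant libraries, and Ets1 and Dlx5 have none.

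The heat map of gene-end peaks gives each strength as a percentile within its own list, because fold enrichment is the authors' value and moves with depth. It is read along a column and not between columns. Id3 was called in 12 of 22 libraries, Pax3, Foxd3 and Id2 mainly for H3K4me3, Menin and TFAP2A, and the Msx genes for few targets.

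Over whole loci the paired targets gave 108 peaks in the WT line, 120 in the mutant line, a ratio of 1.11, where the full lists gave 1.08. Without SMARCC1 these were 97 and 119, a ratio of 1.23 against 1.21 for the lists. The direction turned when depth was equalised, to 103 WT and 96 mutant peaks, a ratio of 0.932, and the full lists turned alike, to 80480 and 76472 peaks, a ratio of 0.950. With equal numbers of top peaks the loci held 99 and 96. At each of these settings the ratio at the loci lay close to that of the full lists. At a −log10 q of at least 5 it was 1.11 (75 and 83 peaks) where the full lists gave 0.976. Of WT peaks at these loci, 78 of 108 overlapped a mutant peak of the same target, or 72.2% (95% Wilson interval 63.1 to 79.8%, counting error only), against 67.3% in the full lists. Of mutant peaks, 78 of 120 overlapped a WT peak, or 65.0% (56.1 to 72.9%), against 62.9%. Both intervals take peaks as independent, although Ets1 alone gave 41 WT and 58 mutant peaks, so they can be too narrow.

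By target, H3K4me3 gave 23 locus peaks in each line, Menin 29 WT and 33 mutant, TFAP2A 16 and 23, ARID1A 19 and 26, and UTX 9 and 14. SMARCC1 gave 11 WT peaks and 1 mutant peak, beside a mutant list 0.253 times as long. ARID2 gave 1 WT peak, at Id3, and PBRM1 and BRD9 gave none. The number of loci with at least 1 H3K4me3 peak was 7 of 8 in both lines, against 63.9% and 67.7% of all genes. For TFAP2A it was 7 in WT cells and 6 in mutant cells, against 46.9% and 58.0%. For Menin it was 6 and 5, against 48.2% and 53.9%. For ARID1A it was 4 and 3 (49.8% and 54.8%), for UTX 3 and 3 (34.2% and 31.6%) and for SMARCC1 4 and 1 (28.2% and 10.0%). For ARID2 it was 1 and 0 (3.63% and 2.48%), and it was 0 in both lines for PBRM1 (3.81% and 4.17%) and BRD9 (0.84% and 0.11%).

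**Figure D2:**
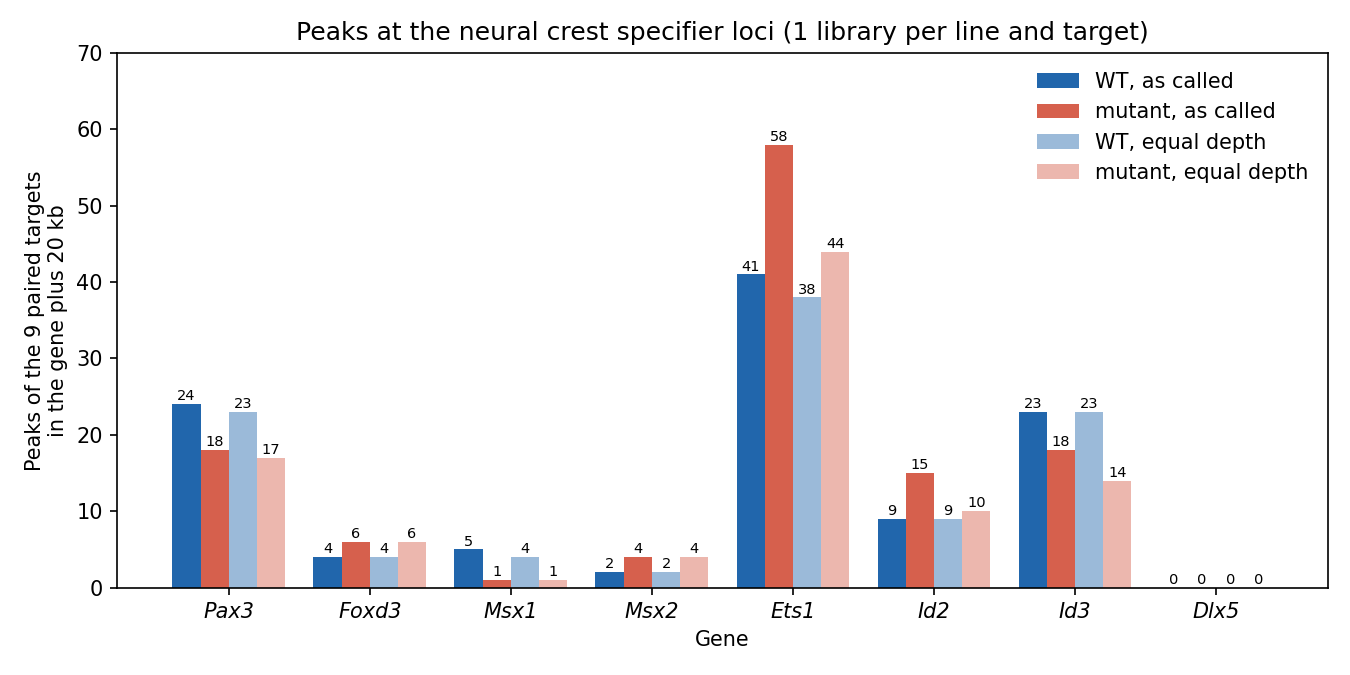
Bars give the number of peaks of the 9 paired targets in the gene plus 20 kb, for the WT list (blue) and the mutant list (red), as called (dark) and at equal depth (pale), with 1 library per line and target and hence no error bars. Ets1 had 41 WT and 58 mutant peaks as called and 38 and 44 at equal depth, while Pax3 and Id3 had more WT peaks under both.

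Locus peaks per gene, plotted as bars, ran from 0 to 58. More mutant than WT peaks were found at Ets1, Id2, Foxd3 and Msx2, 4 of 8 genes, against 42.9% of all genes. Fewer were found at Pax3, Id3 and Msx1, 3 of 8 genes, against 20.5%. At equal depth all 7 kept their direction, with Id2 then at 9 and 10. The shares of all genes above are for peaks as called and were not counted at equal depth. With the stricter limit of −log10 q at 5 or more, Pax3 turned to 15 WT and 17 mutant peaks, and Ets1 stood at 32 and 35. A count also moves with how a domain is split into peaks. At Id3, H3K4me3 gave 7 WT and 4 mutant peaks that covered 5.07 and 5.48 kb. At Ets1, Menin gave 10 and 16 peaks over 10.9 and 10.6 kb, while ARID1A gave 10 and 18 over 4.62 and 8.29 kb. Per 10 kb of locus, the median of the 8 genes was 1.45 WT and 1.37 mutant peaks, against 0.483 and 0.600 over all genes. Id3 was the densest, with 5.53 and 4.33 peaks per 10 kb, at the 99.6 and 98.6 percentiles of all genes.

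Pax3, a paired-box regulator that acts upstream of Mitf in melanocytes, spans chr1:78101267-78197136, and all its gene-end peaks lay at the higher end. There (here and below, the percentile within the list stands in brackets after a fold enrichment) the H3K4me3 fold enrichment was 26.4 (97.4) in WT cells and 34.6 (91.0) in mutant cells. Menin was equally high in rank, at 19.7 (98.6) and 19.0 (97.1). TFAP2A was weak at the same end, at 5.0 (12.1) and 6.91 (41.5), and the WT ARID1A peak was weaker still in rank, at 4.86 (10.2).

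The strongest TFAP2A site of Pax3 lay inside the gene instead, at chr1:78188927-78190433, 88.3 kb from the lower end. It was called in 5 WT and 8 mutant libraries. TFAP2A reached 28.3 in WT cells and 59.4 in mutant cells, at the 91.3 and 97.8 percentiles. TFAP2B reached 28.4 (95.3) and SOX10 U 17.2 (95.1), while SOX10 T was lower at 6.83 (30.8). Menin reached 19.7 and 20.8, H3K4me3 8.07 and 20.2, ARID1A 5.43 and 10.7, and UTX 4.68 and 6.96. The summits of both TFAP2 proteins and both SOX10 antibodies fell between −7568 and −7458 bp from the higher gene end. This was the 1 SOX10 site of the Pax3 locus, and no WT library of SOX10 was analysed.

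Other sites lay farther from the Pax3 end. ARID1A peaks at −12.4 kb and 46.9 kb from the lower end were present in both lines, with a SMARCC1 peak beside each in the deeper WT list only. Their ARID1A fold enrichment was 12.8 and 11.7 in WT cells and 5.08 and 7.21 in mutant cells. A cluster 115 kb from the lower end was called in 4 WT and 5 mutant libraries. The window also reaches Gm2102, another protein-coding gene, and the position of the cluster relative to that gene is not given here. In all the Pax3 locus held 24 WT and 18 mutant peaks of the paired targets, 17 of them shared in each line.

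Foxd3, a forkhead factor gene that holds neural crest progenitors back from the melanocyte fate, spans chr4:99656299-99658671 on the plus strand. Nearly all its signal lay in 1 broad domain of H3K4me3 and Menin. H3K4me3 covered 5.50 kb in WT cells and 9.09 kb in mutant cells, and Menin covered 3.93 and 9.63 kb. The H3K4me3 peak over the gene was 5504 bp wide in WT cells and 7175 bp in mutant cells, at the 99.4 and 99.9 percentiles of width. Its fold enrichment was 4.34 (9.90) and 26.7 (76.0), so the WT peak was broad and low.

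Menin ranked among the highest peaks of both lists beyond the 3′ end of Foxd3, at 24.9 (99.6) in WT cells and 24.8 (99.3) in mutant cells, with summits 3927 and 2730 bp after the start. On the start side the lines differed. There the WT Menin peak was 589 bp wide at 7.14 (55.1), with its summit at −458 bp from the start. The mutant one was 7089 bp wide at 25.7 (99.4), with its summit at −3661 bp. TFAP2A was weak in both lines, at 3.43 (0.103) and 6.14 (34.6), with summits 1416 and 1212 bp after the start. The gene-end TFAP2B peak, 3.47, ranked at the 0.979 percentile. No peak of KMT2D, UTX, ARID1A, SMARCC1 or SOX10 was called anywhere in the Foxd3 locus.

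**Figure D3:**
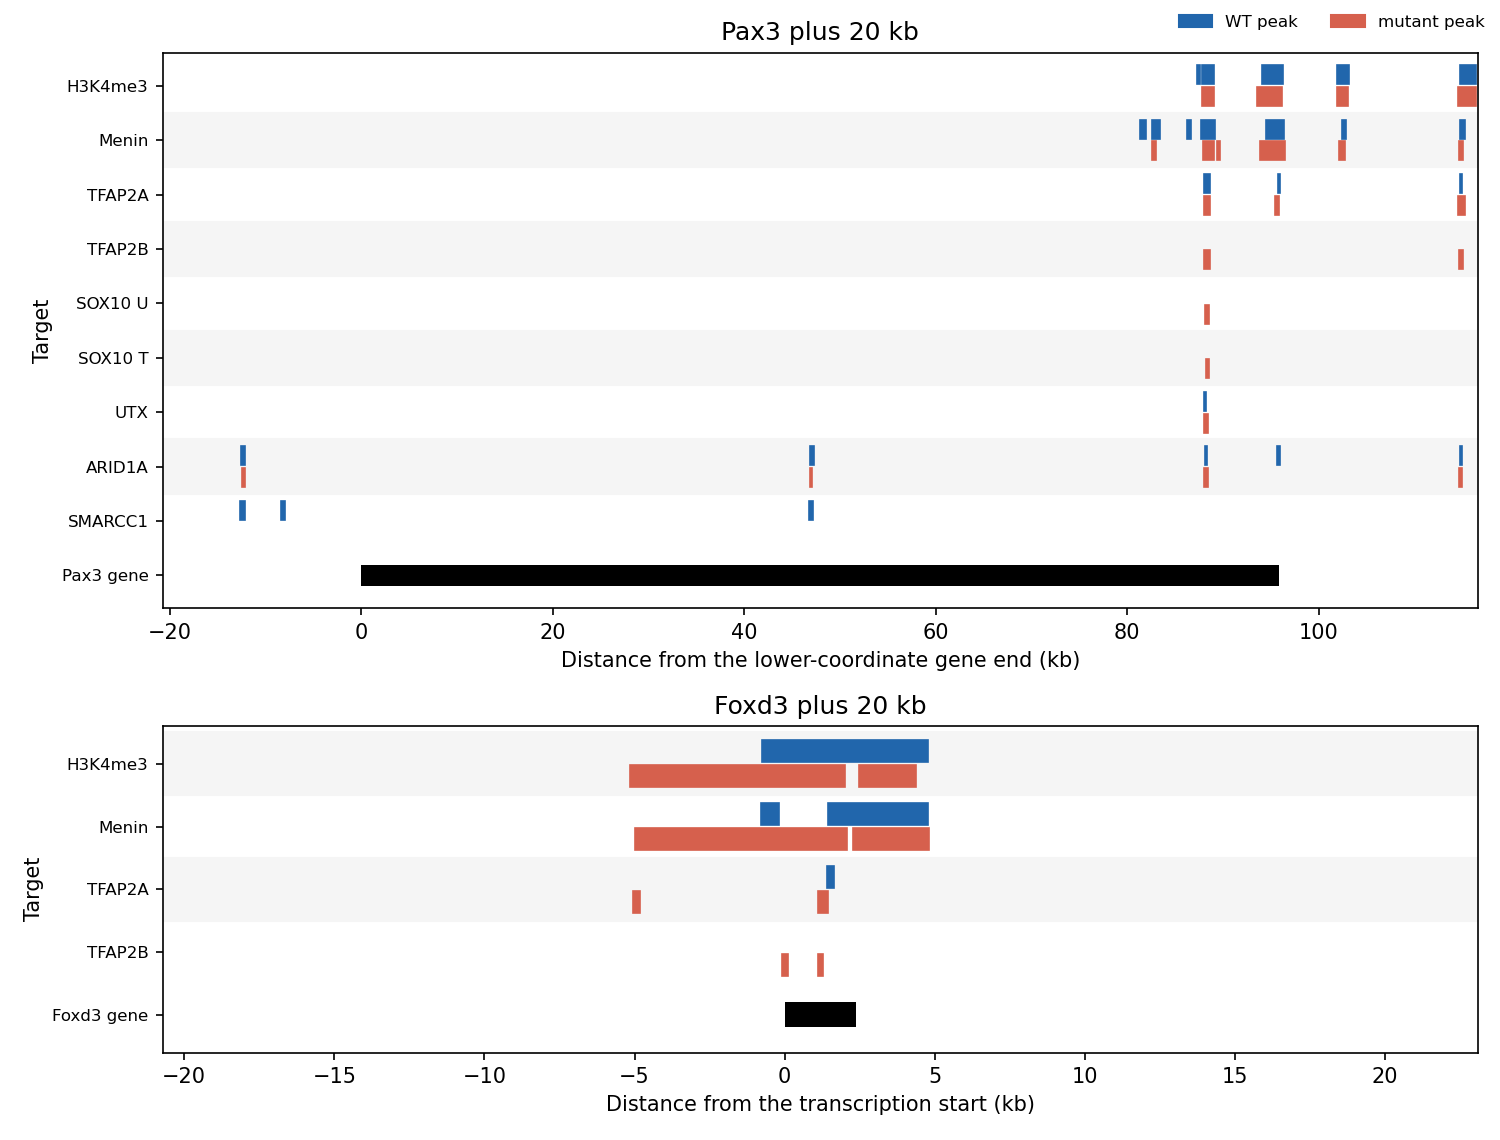
Maps of all peaks in the Pax3 locus (top, distance in kb from the lower gene end) and the Foxd3 locus (bottom, distance in kb from the transcription start), 1 row per target with WT in blue above mutant in red and the gene in black. Only targets with a peak are drawn. The Pax3 site at 88.3 kb carries peaks of 8 mutant libraries, and the Foxd3 H3K4me3 and Menin domains reach farther upstream in the mutant line.

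The maps of Pax3 and Foxd3 place these peaks to scale. The Pax3 signal crowds into the part of the gene near its higher end, whereas Foxd3 lies inside its own domain with no peak farther out.

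Msx1 and Msx2 encode homeobox repressors that act with BMP signalling at the neural plate border. Msx1 spans chr5:37820491-37824585 on the minus strand. H3K4me3 there had an enrichment of 9.96 (42.5) in WT cells and 10.3 (34.3) in mutant cells. The WT list alone had Menin, inside the gene at 5.05 (19.4), and TFAP2A, at 5.35 (15.7) with its summit 209 bases before the start, in the promoter printed above. The WT list alone also had an ARID1A peak of 9.40 and a SMARCC1 peak of 5.37, with summits 6045 and 5860 bp before the start. So Msx1 held 5 WT peaks and 1 mutant peak of the paired targets, and 4 and 1 at equal depth.

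Msx2 spans chr13:53466881-53472780 on the minus strand and had 2 WT peaks beside 4 mutant ones. Its H3K4me3 fold enrichment was 6.07 (23.0) in WT cells and 12.7 (40.8) in mutant cells. TFAP2A was 5.0 (12.1) and 8.44 (49.2), with the WT summit 93 bases after the start and the mutant summit 64 bases before it. The mutant list added H3K4me3 peaks of 5.75 (15.2) and 11 (36.2), with summits 10203 bp after and 3030 bp before the start. Neither Msx gene had a peak of KMT2D, UTX, TFAP2B or SOX10 in its locus.

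Id2 spans chr12:25093799-25096092 on the minus strand, and its promoter carried H3K4me3, Menin and TFAP2A in both lines. The H3K4me3 fold enrichment was 26.4 (97.4) in WT cells and 26.1 (74.6) in mutant cells. Menin was 8.70 (70.7) and 10.5 (80.8). TFAP2A was 9.83 (54.7) and 14.4 (73.3), with summits 192 and 162 bases before the start. The CCAAT boxes printed above lie at 159, 120 and 76 bases before the start. A second H3K4me3 block lay upstream, with a WT summit 4360 bp and a mutant summit 3747 bp before the start, at 11.7 (50.4) and 12.6 (40.4). All 9 WT peaks of the Id2 locus were shared. The mutant list had 15, of which 9 were shared, and 10 remained at equal depth.

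Id3 spans chr4:136143822-136145392 on the plus strand and was the gene with the most libraries at its ends. Its H3K4me3 fold enrichment was 15.7 (69.0) in WT cells and 29.1 (81.7) in mutant cells. Menin was 17.1 (97.1) and 31.6 (99.9), in peaks 3983 and 6712 bp wide. The WT Menin peak had its summit at −3.33 kb from the start and the mutant one at −125 bp. TFAP2A was 12.3 (66.7) and 33.4 (92.3), and mutant TFAP2B was 11.4 (72.4). UTX was 13.4 (67.7) and 10.4 (72.1), ARID1A 4.72 (7.78) and 8.59 (41.9), and KMT2D in the WT line 16.6 (78.8).

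The summits at the Id3 promoter sat close together. TFAP2A lay at −80 bp from the start in WT cells and at −73 bp in mutant cells, and TFAP2B lay at −90 bp. Their peaks cover the palindrome at 99 bases before the start. KMT2D lay at −132 bp, and 9 summits of 5 mutant and 4 WT libraries fell in the printed window.

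A second Id3 site lay upstream and carried the strongest KMT2D peak at any of the 8 loci. KMT2D reached 28.9 (92.1) there, with its summit at −3.23 kb from the start. In the WT list UTX reached 30.5 (91.4), ARID1A 17.9 (84.7), TFAP2A 6.47 (28.1) and ARID2 6.33 (53.3). In the mutant list UTX was 3.76 (4.53) and ARID1A 12.2 (63.2), and no TFAP2A or ARID2 peak was called. Menin was high in both lines, at 17.1 (97.1) in WT cells, the wide peak named above, and 21.5 (98.4) in mutant cells. UTX thus stood high within the WT list (9712 peaks) and low within the mutant list (9707 peaks, 1.58 times the depth). The other sites with KMT2D and UTX went both ways. UTX percentiles in WT and mutant cells were 67.7 and 72.1 at the Id3 promoter. At Ets1 they were 77.9 and 90.0 near 59.7 kb from the lower end, and 86.4 and 30.9 near 73.7 kb. The cause was not tested. The Id3 KMT2D peak farthest downstream, 7.47 (36.1), lay 4.13 kb after the start, with TFAP2A of 12.3 (66.5) and 18.6 (80.5).

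**Figure D4:**
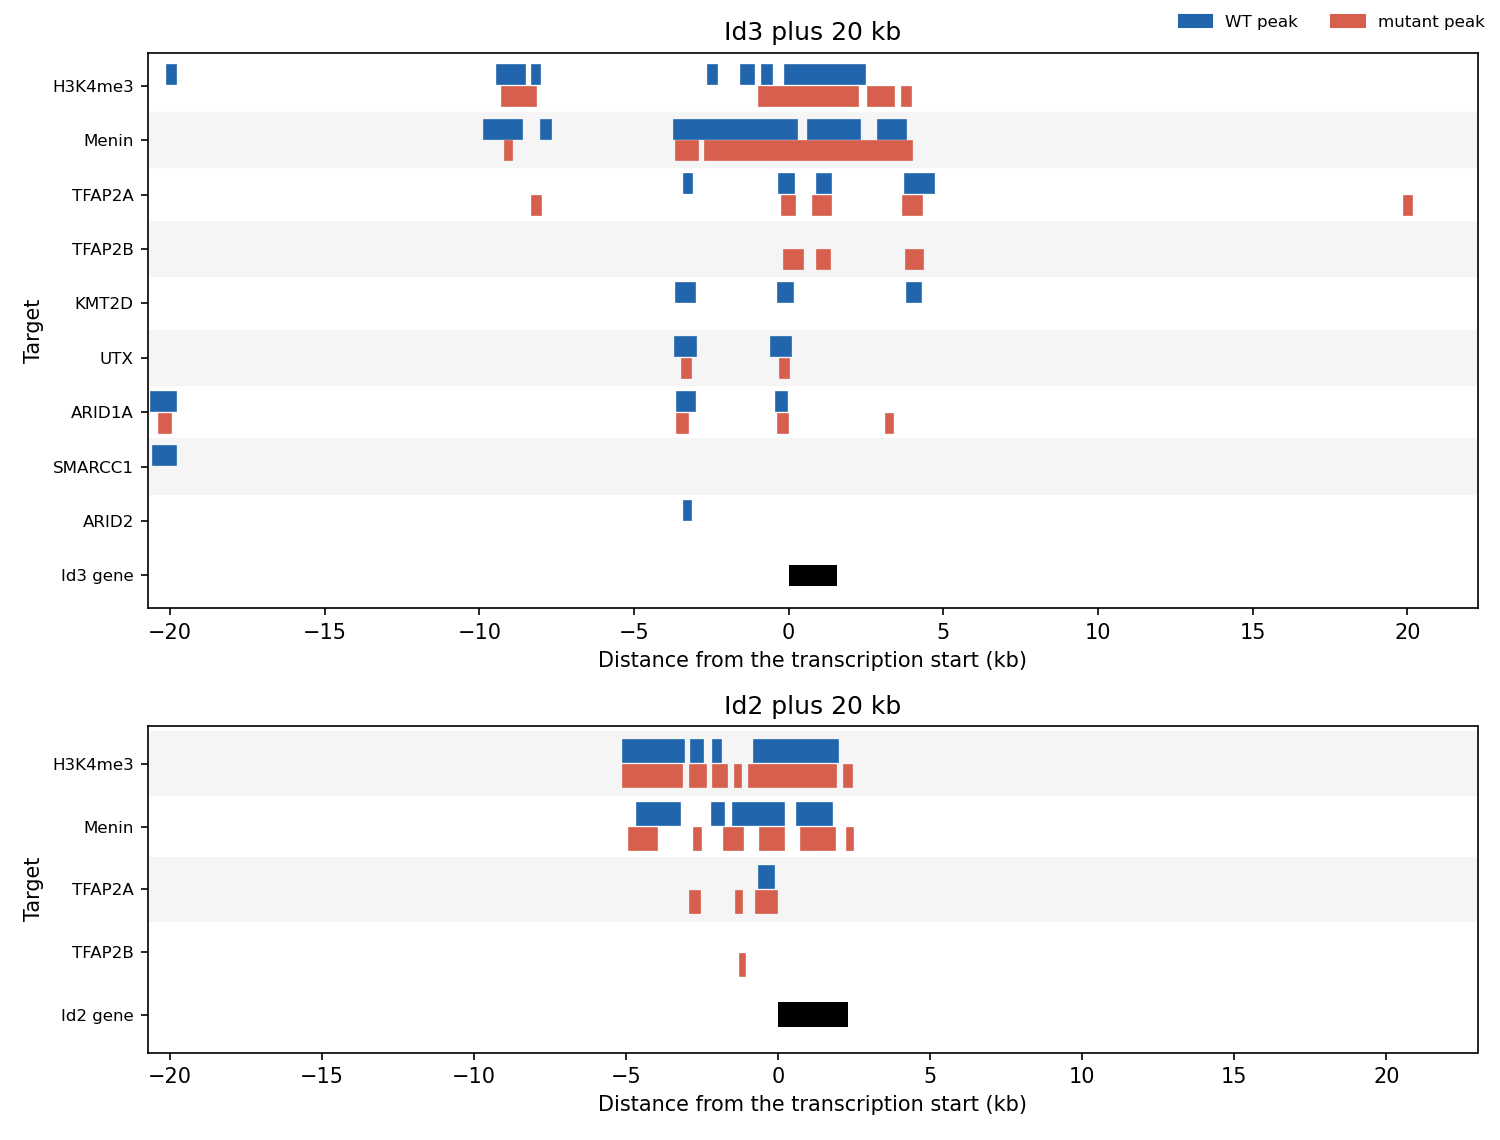
Maps of all peaks in the Id3 locus (top) and the Id2 locus (bottom), distance in kb from the transcription start in the direction of transcription, 1 row per target with WT in blue above mutant in red and the gene in black. Only targets with a peak are drawn. Id3 carries KMT2D at 3 positions, and Id2 carries H3K4me3, Menin, TFAP2A and TFAP2B.

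Ets1 encodes the founding member of the ETS factor family and is expressed in cranial neural crest and in many other tissues. It spans chr9:32636241-32757820 and had no gene-end peak of any target within 1 kb, but the most locus peaks of the 8 genes, 41 WT and 58 mutant over the paired targets. Overlapping peaks of all libraries merged into 25 regions, of which 10 held both lines, 13 the mutant line only and 2 the WT line only. Over all 8 genes the regions numbered 52, with 26, 18 and 8. The mutant-only share was 52.0% at Ets1, 18.5% at the other loci together and 27.8% over the whole series. These regions include lists that only 1 line has. With the paired targets alone, 12 of 24 Ets1 regions were mutant-only, against 26.4% over the series. At equal depth they were 8 of 19, or 42.1% against 22.6%. Ets1 is also the longest locus, 161.6 kb against 41.57 to 135.9 kb for the others, and its regions share 1 locus and the same libraries, so these shares are descriptions.

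The H3K4me3 of Ets1 lay inside the gene. The block, 6196 bp wide in WT cells and 6493 bp in mutant cells, had its summit 61.4 and 61.5 kb from the lower end. Its fold enrichment was 31.6 (99.7) and 38.0 (94.7). At its edge, near 59.7 kb, lay KMT2D at 18.9 (82.7), UTX at 17.5 (77.9) in WT cells and 17.2 (90.0) in mutant cells, and ARID1A at 23.7 (92.4) and 29.4 (92.9). TFAP2A there was 10.4 (57.0) and 43.0 (95.3). The gene table gives 1 start and 1 end per gene, so whether an annotated internal start lies at this block was not examined.

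In the lower part of Ets1 lay the gap between neighbouring WT peaks, all WT lists pooled, that held the most mutant peaks of the locus. From chr9:32635193-32694201, 59.0 kb, none of the 10 WT lists had a peak, and the mutant lists had 18 peaks, from 8 libraries of 7 targets. Of the 13 peaks of paired targets among them, 11 remained at equal depth and 7 reached a −log10 q of 5. This stretch was picked after its values had been seen. Its bounds are WT peaks, so its lack of WT peaks follows from the choice and is no result. How often such gaps occur at other loci was not examined.

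Within it, the region chr9:32667082-32668727, about 32.1 kb from the lower end, was called in 8 mutant libraries. SOX10 U reached 49.0 there, a value exceeded by 3 of the 6358 peaks of its list. TFAP2A reached 31.4 (91.3), UTX 18.3 (91.2), SOX10 T 14.1 (87.1), TFAP2B 11.5 (74.2) and ARID1A 9.33 (48.2). Menin, 7.65 (59.7), and H3K4me3, 5.42 (12.9), were lower. All 5 paired targets kept their peak at equal depth. No WT list of SOX10 or TFAP2B was analysed here. The WT TFAP2A, UTX, ARID1A, Menin and H3K4me3 lists had no peak at this site. The site was picked as the Ets1 region without WT peaks that had the most mutant libraries. Its lack of WT peaks thus follows from the choice and is no result, and the equal-depth calls describe peaks picked in this way.

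**Figure D5:**
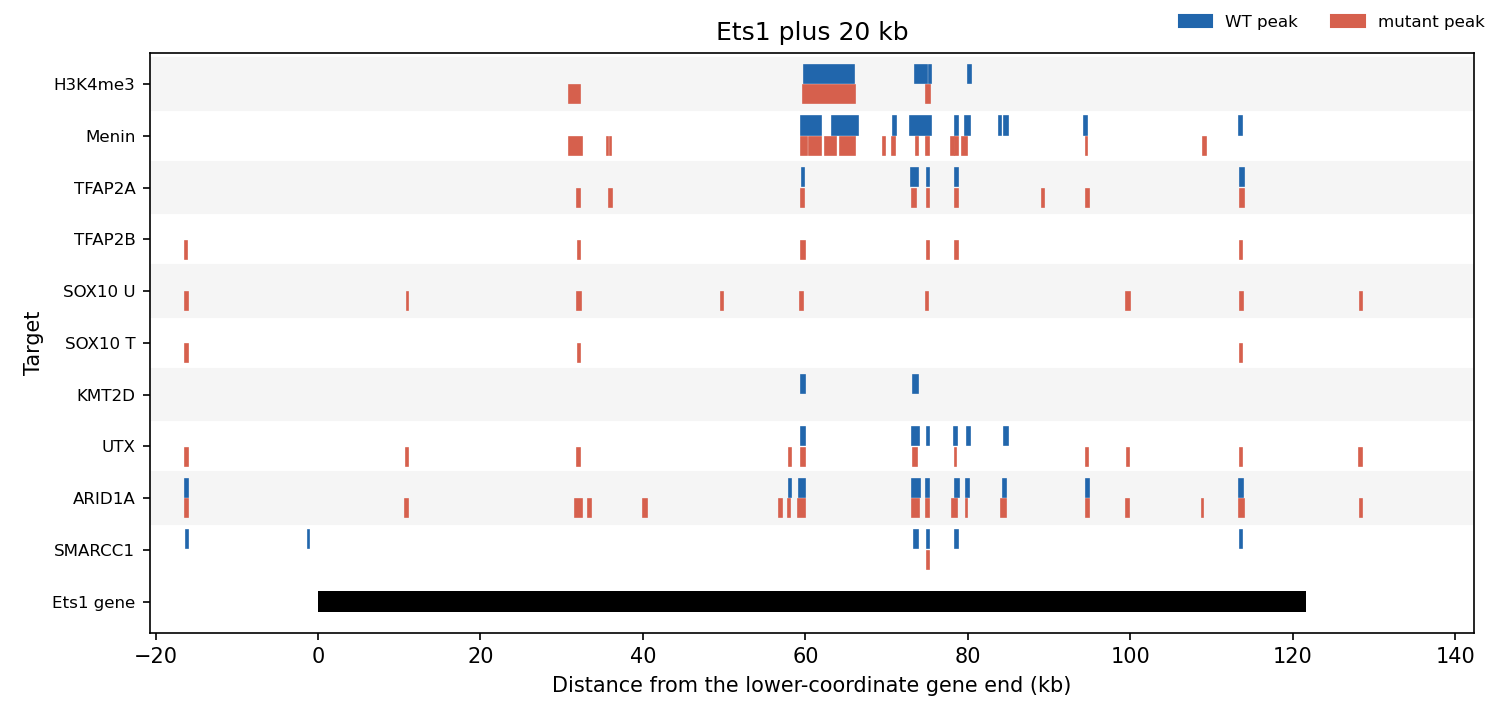
Map of all peaks in the Ets1 locus, distance in kb from the lower-coordinate gene end, 1 row per target with WT in blue above mutant in red and the gene in black. Only targets with a peak are drawn. The H3K4me3 block near 60 kb is present in both lines. In the lower part of the gene, a gap between neighbouring WT peaks holds 18 mutant peaks. It was chosen as the gap with the most mutant peaks.

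The Ets1 map also shows sites in both lines. A region at chr9:32709165-32711751 was called in 15 libraries, 7 WT and 8 mutant, with KMT2D at 17.7 (81.1), UTX at 23.6 (86.4) in WT cells and 5.90 (30.9) in mutant cells, and ARID1A at 21.3 (89.9) and 15.7 (74.4). A region at chr9:32749570-32750293, near the higher end, was called in 10 libraries, with ARID1A at 25.3 (93.6) and 30.2 (93.4) and TFAP2A at 15.4 (75.5) and 30.2 (90.8). SOX10 U reached 24.5 (98.6) there, while SOX10 T was lower at 6.52 (25.8). Below the gene, at −16.1 kb, SOX10 U and SOX10 T reached 14.5 (91.8) and 14.1 (87.1), with ARID1A in both lines.

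Dlx5, a homeobox gene of the plate border and branchial arches, had no peak of any of the 22 lists in its locus, chr6:6877801-6882068 with 20 kb on each side. Its neighbour Dlx6 lies in the same window. Of all genes, 23.7% had no peak by this measure.

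KMT2D, TFAP2B and SOX10 each had lists from 1 line. KMT2D had 5 locus peaks, 3 at Id3 and 2 at Ets1, so 2 of 8 loci against 27.7% of all genes. WT TFAP2A overlapped all 5 (57.7% over the whole KMT2D list), UTX 4 (88.3%), ARID1A 4 (87.7%), Menin 4 (37.7%) and H3K4me3 3 (34.7%). SOX10 U had 10 locus peaks, 9 at Ets1 and 1 at Pax3, so 2 of 8 loci against 20.6% of all genes. Mutant ARID1A overlapped 9 of the 10 (74.7% over the list), UTX 8 (60.7%), TFAP2B 6 (27.0%) and TFAP2A 5 (48.4%). SOX10 T had 4 locus peaks, 3 at Ets1 and 1 at Pax3, in 2 of 8 loci against 5.21% of all genes, and each overlapped a SOX10 U peak. TFAP2B had 14 locus peaks in 5 of 8 loci, against 40.8% of all genes, and TFAP2A overlapped 12 of them (94.0% over the list). These overlaps count sites of 1 library each, several in the same locus, and are descriptions.

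The other neural crest network genes, 25 in number and listed with earlier results of these data known, are set beside the 8 genes with no test of the difference. At equal depth, H3K4me3 marked 13 in WT cells and 20 in mutant cells, against 49.3% and 53.3% of all genes. The genes then marked in the mutant line only, 7 of 25 beside 4.74% of all genes, were Zic1 and Zic2, border factors, Snai1 and Prdm1, repressors, Sox10, Ngfr, a neurotrophin receptor gene, and Rxrg, a retinoid receptor gene. Their fold enrichment in the mutant list as called ran from 8.04 (26.8) at Zic1 to 18.5 (55.5) at Ngfr, so none ranked high in that list.

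TFAP2A marked 3 of the 25 genes in WT cells and 12 in mutant cells as called, against 24.6% and 34.0% of all genes. The mutant-only genes, 9 of 25 beside 10.6% of all genes, were Sox8, Sox9, Sox10, Snai2, Twist1, Zic2, Nr2f1, Lmo4 and Ngfr, with fold enrichment from 3.39 (2.81) at Sox8 to 10.2 (60.1) at Twist1. At equal depth the counts were 3 and 7, with 5 in the mutant line only (Ngfr, Nr2f1, Snai2, Sox9 and Twist1) against 6.59% of all genes, and 1, Gbx2, in the WT line only against 2.53%. The highest H3K4me3 of the list was at Twist1 in the WT line, 25.7 (96.7), and at Sox9 in the mutant line, 34.9 (91.4). Pax3 and Id2 stood at about the rank of Twist1 in the WT list.

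Of 13 paralogues of the 8 genes, H3K4me3 marked 7 in WT cells and 10 in mutant cells, against 49.3% and 53.8% of all genes. Dlx4 at 5.56 (13.8), Foxd1 at 10.2 (33.9) and Foxd4 at 6.40 (18.9) had it in the mutant line only, 3 of 13 beside 5.09%. TFAP2A marked 6 in each line, against 24.6% and 34.0% of all genes. At equal depth it marked 6 and 5, against 24.6% and 28.6%, with Dlx1 then in the WT line only, beside 2.53%. The highest H3K4me3 was at Id1 in the WT line, 22.2 (91.0), and at Dlx2 in the mutant line, 39.6 (96.1). The Dlx2 gene end also had TFAP2A at 61.8 (98.9) and 125 (99.8), while its relative Dlx5 had no peak at all.

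By the pattern of gene-end ranks over the 22 libraries, the genes most like Pax3 were Map3k2 (Pearson r = 0.998) and Sacm1l (0.997). Those most like Id2 were Fbxw7 (0.992) and Lacc1 (0.991), those most like Foxd3 were Tbx6 (0.988) and Cntnap1 (0.984), and those most like Id3 were Ywhaq (0.982) and Esyt1 (0.978). Libraries without a peak count as 0, so absence in the same libraries carries much of each r. A peak of very low rank also counts almost as none. Tbx6 had gene-end peaks in 4 libraries and Foxd3 in 7, so a high r does not mean the same calls. Msx1, Msx2, Ets1 and Dlx5 had gene-end peaks in under 5 libraries and were not matched.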

How the data were processed

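Peak lists of 22 CUT&RUN libraries were used, and the 2 rabbit IgG samples were not analysed here. The submitters' processing notes name Bowtie2, MACS2, FastQC and MultiQC, and the build mm10. The tools' versions and settings, and which control the caller had, are not given in the sources used here. Deposited values per peak were a score, the authors' fold enrichment (a ratio over the caller's background), −log10 p and −log10 q. Peaks had been called per sample.

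Genes came from the GRCm38.p6 RefSeq table, which gives no strand. Strand and promoter sequence came from the RefSeq promoter table, which held 5 of the 8 genes. A peak counted with an overlap of at least 1 bp, and a shared peak overlapped one of the same target in the other line. Percentiles rank fold enrichment within a list. Depth was reconstructed from fold enrichment and −log10 p with the caller's default mouse genome size (1.87 Gb). The width of the narrowest peak of each list stood for the fragment length. That assumption was not checked, and all equal-depth results rest on it. For equal depth the deeper list was scaled down by the depth ratio, and peaks then under the lowest −log10 p of the other list were dropped. Peaks with a −log10 p above 100, and those whose background could not be recovered, were kept without scaling. Gene-end counting was tested on simulated data, with 100 of 100 planted calls recovered over 200 genes.

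Named genes were the 8 members, the list genes with a gene-end H3K4me3 or TFAP2A peak in 1 line only, each list's highest H3K4me3 gene per line, and the 2 genes most like each member. For H3K4me3 at the other network genes, the calls at equal depth are given, and the result as called is not reported here. Genes named with the highest TFAP2A values, the Ets1 stretch, the site described within it and the motifs were chosen after values were seen. The members and lists were chosen with earlier results of these data known. Alternatives were gene ends of 2.5 kb, the start alone, a −log10 q of at least 5, equal numbers of peaks, equal depth, other flanks, a stricter overlap, and removal of SMARCC1 or of regions in at least 15 libraries. Scripts ran in Python 3.11.15 with pandas 2.3.3, NumPy 2.4.6, Matplotlib 3.10.9 and SciPy 1.17.1.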

Additional observations from a re-analysis of the deposited data

How the results depend on the processing

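Of 82 values recomputed under the alternatives, 77 stayed within 1.5 times the value reported. At a −log10 q of at least 5, members with gene-end TFAP2A in the WT line fell from 6 to 3 (Msx1, Id2 and Id3), members with ARID1A in the WT line from 2 to 0, and members with TFAP2B or SOX10 in the mutant line from 2 to 1. With equal numbers of top peaks, members with TFAP2A in the mutant line numbered 3 instead of 5. The finding that no member had a gene-end peak in the mutant line only did not hold at a −log10 q of at least 5, where TFAP2A gave 3 such genes, H3K4me3 1 and ARID1A 1. With gene ends of 2.5 kb, SMARCC1 marked 1 member in the WT line instead of 0, which was Ets1. The causes were not tested. Counting the start alone, which was possible for the 5 genes with a strand (both ends were kept for Pax3, Ets1 and Dlx5), Foxd3 lost its TFAP2A call in both lines. Locus totals ran from 75 to 139 in the WT line and from 83 to 152 in the mutant line over the alternatives, and the mutant excess turned at equal depth and at equal numbers of peaks. No paired analysis was possible because each line and target had 1 library. The deeper mutant lists can hold weak peaks that the WT lists could not, so an absent WT peak means not called at that depth. The equal-depth step was not compared with peaks called anew, and the per-gene locus counts, the gene lists, the calls in 1 line only, the regions and the Ets1 stretch under these settings were added after seeing the data.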
